A study of Homo sapiens with 18 samples.

Results

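Replication-dependent histone genes were followed in SKOV-3 cells, an ovarian carcinoma cell line, before and after cisplatin. Their members were all probe sets of the array whose gene symbol is H1-1 to H1-6 or begins with H2AC, H2BC, H3C or H4C and a number. The rule used symbols only and found 61 probe sets, 1 for each gene, among the 21448 that were tested. They comprised 6 linker histone H1 genes and 55 core histone genes, of which 14 were H2A, 17 H2B, 9 H3 and 15 H4 genes. By the array's identifiers 49 lay on chromosome 6, 11 on chromosome 1 and 1 on chromosome 12, and all 61 symbols matched RefSeq by gene ID.

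Nucleosomes wrap DNA around an octamer of H2A, H2B, H3 and H4, and linker histone H1 binds where the DNA enters and leaves. Cells need new histones mainly while DNA is copied. Membership here went by symbol, and whether each member is made mainly at that time was not tested. Genes of the replication-dependent class supply these histones in S phase, under the coactivator NPAT. Their mRNAs lack introns and a poly(A) tail, end in a stem-loop bound by SLBP, and are degraded when DNA synthesis stops. Cisplatin is a platinum drug that crosslinks DNA bases.

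The study asked how the phosphorylation state of PEA-15, a small phosphoprotein that binds ERK1/2, bears on the cisplatin response. Plasmids carried no PEA-15 form (SKOV-3-EV), PEA-15AA, which cannot be phosphorylated (SKOV-3-AA), or PEA-15DD, which mimics the phosphorylated protein (SKOV-3-DD). All cells were transfected, and 24 h later they received 15 µM cisplatin or medium alone for 24 h. Total RNA was hybridised to Clariom S arrays, 3 per group in 6 groups, hence 9 untreated and 9 treated arrays. The source label of the untreated SKOV-3-EV arrays reads medium while their title also holds the abbreviation of cisplatin, and the source label was used. The transfections were transient, and whether the 3 arrays of a group are separate cultures is stated in no source used here, and p-values therefore measure only the spread between these arrays, which may be technical.

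The PEA15 probe set did not separate the transfections. Its mean log2 signal was 10.25 in untreated SKOV-3-EV, 10.76 (SD 1.33, n = 3) in SKOV-3-DD and 9.93 in SKOV-3-AA, and under cisplatin 11.18, 10.96 and 10.21 in the same order, and none of the comparisons was called. Whether its probes lie within the transfected insert is unknown, so it does not check the labels. Of 8 measured ovarian epithelial markers 7 exceeded the control level (the 95th percentile of 612 negative control features of the same array) on all 18 arrays, against 2 of 4 leukocyte, 0 of 3 endothelial, 1 of 4 fibroblast and 0 of 2 hepatocyte markers. The leukocyte markers were PTPRC and CD68 and the fibroblast marker was COL1A2. After cisplatin PTPRC changed by -2.33, COL1A2 by -1.10 and CD68 by 0.74 on the log2 scale, and of the 8 epithelial markers 2 fell, PAX8 (-3.45) and KRT19 (-1.60), 4 rose and 2 were not called. The part of these changes in the results was not tested. Replicates 2 and 3 of SKOV-3-DD under cisplatin lay farthest from their group mean, and replicate 2 was the lowest of its group for 43 of the 61 histone genes. Signals were from bulk cells, so fewer cells in S phase and less histone mRNA per cell cannot be told apart.

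The upstream regions of these genes carry type-specific letters, and 7 are shown because they belong to the genes on which the results turn, namely the H2B genes that fell furthest, the H1 gene that fell furthest and the H1 gene called higher, the H4 gene that fell furthest among those with a sequence and the H4 gene that rose, and the H3 gene that rose. RefSeq sequences of build GRCh38.p14 were given for 57 of the 61 genes, all but H2AC12, H3C11, H4C1 and H4C3. Each line holds the 250 bases before the start, 5′ to 3′ on the strand of the gene, and capitals mark matches on either strand to AAACACA (the H1 box), GGTCCG (the core of the H4 site), ATTTGCAT (the octamer), CCAAT and TATAAA, none of which overlap in these 7 regions.
H2BC14: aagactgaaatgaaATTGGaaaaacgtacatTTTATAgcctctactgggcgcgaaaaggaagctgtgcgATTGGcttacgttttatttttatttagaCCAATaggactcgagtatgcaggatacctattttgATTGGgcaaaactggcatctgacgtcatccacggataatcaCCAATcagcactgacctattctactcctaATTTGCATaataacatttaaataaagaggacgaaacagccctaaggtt
H2BC8: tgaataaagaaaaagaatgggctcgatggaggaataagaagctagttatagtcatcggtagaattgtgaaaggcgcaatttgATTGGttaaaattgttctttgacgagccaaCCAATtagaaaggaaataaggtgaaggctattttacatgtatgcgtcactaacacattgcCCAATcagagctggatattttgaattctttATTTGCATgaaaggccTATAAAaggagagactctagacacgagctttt
H1-5: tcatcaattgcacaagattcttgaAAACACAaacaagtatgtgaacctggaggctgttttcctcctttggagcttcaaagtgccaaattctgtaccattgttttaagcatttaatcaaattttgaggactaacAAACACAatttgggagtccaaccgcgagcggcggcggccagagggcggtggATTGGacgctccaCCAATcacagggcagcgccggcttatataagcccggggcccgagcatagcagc
H1-1: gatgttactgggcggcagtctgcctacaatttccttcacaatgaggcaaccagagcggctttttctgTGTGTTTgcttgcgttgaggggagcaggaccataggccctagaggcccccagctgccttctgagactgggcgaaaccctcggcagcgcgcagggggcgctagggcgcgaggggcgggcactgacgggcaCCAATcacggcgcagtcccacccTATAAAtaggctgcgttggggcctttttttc
H4C4: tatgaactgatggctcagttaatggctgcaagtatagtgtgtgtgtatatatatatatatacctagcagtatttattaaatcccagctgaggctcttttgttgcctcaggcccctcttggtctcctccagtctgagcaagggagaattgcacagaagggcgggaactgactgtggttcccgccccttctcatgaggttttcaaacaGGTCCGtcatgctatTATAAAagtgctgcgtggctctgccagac
H4C12: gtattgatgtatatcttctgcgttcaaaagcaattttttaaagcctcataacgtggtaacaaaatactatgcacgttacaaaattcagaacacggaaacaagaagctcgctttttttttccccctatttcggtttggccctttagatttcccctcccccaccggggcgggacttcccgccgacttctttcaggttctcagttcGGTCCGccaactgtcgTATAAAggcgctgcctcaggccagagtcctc
H3C13: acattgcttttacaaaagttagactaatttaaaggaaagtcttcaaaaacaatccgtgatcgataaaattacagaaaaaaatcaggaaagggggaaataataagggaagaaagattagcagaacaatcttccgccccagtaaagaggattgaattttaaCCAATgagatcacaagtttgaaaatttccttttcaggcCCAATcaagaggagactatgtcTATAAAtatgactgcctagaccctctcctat
These are chr6:27814772-27815021 for H2BC14 on the plus strand and, all on the minus strand, chr6:26216689-26216938 for H2BC8, chr6:27867589-27867838 for H1-5, chr6:26017788-26018037 for H1-1, chr6:26189113-26189362 for H4C4, chr6:27831561-27831810 for H4C12 and chr1:149813694-149813943 for H3C13.

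The H1 box was found upstream of 6 of 6 H1 genes and of no core histone gene, whereas 4.82% of all 35116 RefSeq promoter regions of this length held it. The H4 core was found in 12 of 13 H4 genes, in 1 gene each of H2A, H2B and H3, and in 9.43% of all regions. The octamer stood upstream of 14 of 17 H2B and 8 of 13 H2A genes and of no H1, H3 or H4 gene, against 1.63% of all regions. Matches on either strand were counted, so an H2A and an H2B gene that stand head to head can count the same match. The H2A and H2B genes with the H4 core, H2AC20 and H2BC21, are such a pair. CCAAT was present in every H1, H2A, H2B and H3 gene with a sequence but in 3 of 13 H4 genes (32% of all regions), and TATAAA in 3 of 6 H1, 11 of 13 H2A, 12 of 17 H2B, 6 of 8 H3 and 7 of 13 H4 genes (10.7% of all regions). In H2BC14 and H2BC8 the octamer began 48 bases before the start. In H4C4 and H4C12 the H4 core began 44 and 47 bases before it, followed by TATAAA at 29 and 31 bases. H4C4, which fell, and H4C12, which rose, shared the same pair of motifs at nearly the same distance. The call of H4C12 was lost in 13 of 18 fits that left out 1 array. Whether these motifs bear on the direction of change was not tested. A match is a description of letters and not evidence of a bound factor.

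Cisplatin lowered most of these genes. Over all transfections 50 of the 61 fell (82%), at an adjusted p under 0.05 from limma, where 28.7% of all probe sets fell. The 3 that rose were H3C13, H1-1 and H4C12 (36.5% of all probe sets rose), and 8 were not called. On 39 of the 61 probe sets each of the 9 treated arrays lay under each of the 9 untreated arrays, which held for 18% of all probe sets, and on 0 did all treated arrays lie above (13.3% of all). When the study's own criteria were applied (2-fold or more, with p under 0.05 before adjustment), 27 were lower (12.2% of all) and 0 were higher (6.4% of all). The median log2 fold change of the 61 was -0.84, beside 0.10 over all probe sets. Centring each array on its median moved every change up by 0.20, and H2BC1, H2BC4, H2BC5, H3C6, H4C11, H4C14 and H4C15 were then no longer called lower, while quantile normalization took that call from H2AC12, H2BC4, H2BC5, H2BC6 and H3C6.

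**Figure D1:**
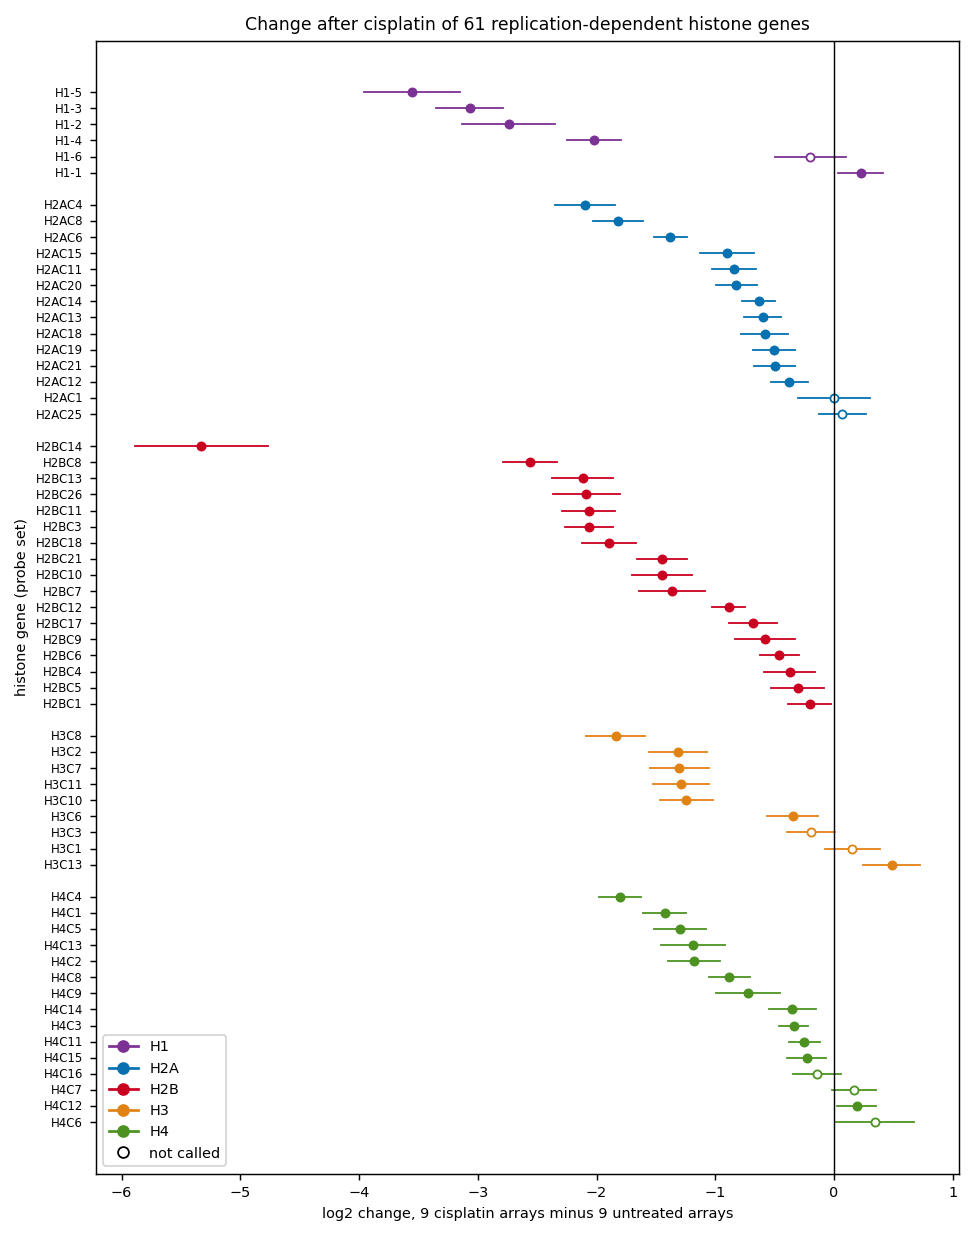
The log2 change of each of the 61 histone genes after cisplatin (x axis, 9 treated minus 9 untreated arrays) is plotted by histone type, with its 95% interval as a line and open circles for the 8 genes that were not called. H2BC14 stands alone at -5.33, and 4 of the 6 H1 genes lie at -2.02 or lower.

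The types differed in how far they fell. The median log2 fold change was -2.38 for H1, -1.45 for H2B, -1.24 for H3, -0.62 for H2A and -0.35 for H4. All 17 H2B genes fell, as did 12 of 14 H2A, 11 of 15 H4, 6 of 9 H3 and 4 of 6 H1 genes. At the study's thresholds the order of shares was 4 of 6 H1, 10 of 17 H2B, 5 of 9 H3, 5 of 15 H4 and 3 of 14 H2A genes. These are descriptions, because genes of 1 type share sequence and are not replicates, and probes of near-identical copies may each report more than 1 gene. Of the genes on chromosome 6, 41 of 49 fell with a median of -0.90, and of those on chromosome 1, 9 of 11 fell with a median of -0.50. On all 9 untreated arrays 49 genes exceeded the control level. By contrast 7 genes, H1-1, H1-6, H2AC1, H2BC1, H4C6, H4C7 and H4C16, exceeded the control level on no array, and of these only H2BC1 was called lower.

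H1 genes showed the strongest falls as a type. H1-5 (H1.5, a somatic linker histone) ranged from 14.35 to 14.86 with a median of 14.61 on the untreated arrays and from 10.04 to 12.12 with a median of 11.12 on the treated arrays. It fell 11.8-fold, a log2 fold change of -3.56 (SE 0.19, adjusted p = 1.2e-11 by limma). H1-3 ranged from 10.33 to 11.09 and then from 7.04 to 8.37, a log2 fold change of -3.07 (SE 0.13). The groups did not overlap for either gene, and both fell further on the log2 scale than any H2A, H3 or H4 gene. H1-2 went from between 11.08 and 11.76 to between 8.07 and 9.87, with a log2 fold change of -2.74 (SE 0.19). H1-4 went from between 15.37 and 15.68 to between 12.80 and 13.94, a log2 fold change of -2.02 (SE 0.11). All 4 are the linker histones that dividing somatic cells commonly make, and in each the treated arrays lay below all untreated arrays. H1-6, a testis linker histone, lay between 3.96 and 4.72 untreated and between 3.37 and 5.09 treated and was not called (log2 fold change -0.20, SE 0.14, adjusted p = 0.22 by limma). H1-1 was called higher at 0.22 (SE 0.09, adjusted p = 0.039 by limma), but it exceeded the control level on no array, its groups overlapped, and quantile normalization gave 0.07 with an adjusted p of 0.51 by limma. Its call was also lost in 10 of 18 fits that left out 1 array, and with trend and robust options or array weights (adjusted p = 0.069 by limma for each). The H1 box was present in both H1-5 and H1-1, in the latter on the opposite strand.

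**Figure D2:**
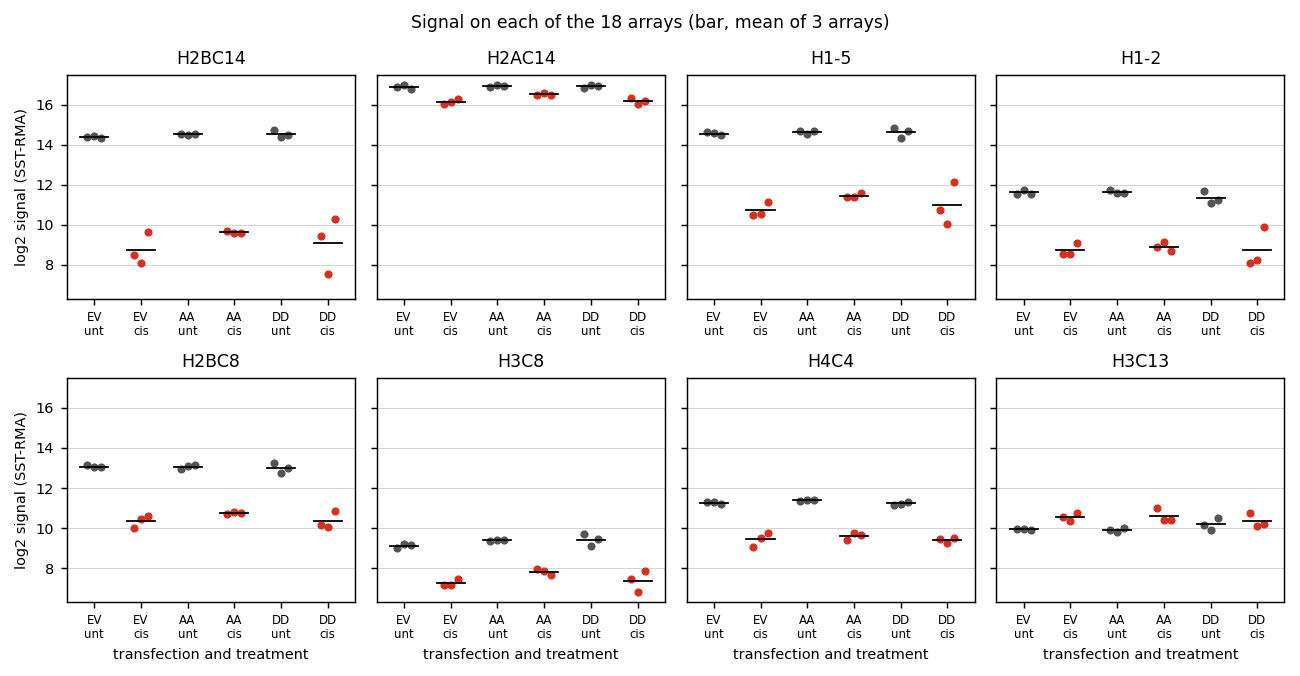
The log2 signal on each of the 18 arrays (y axis) is plotted for 8 genes by transfection and treatment, grey untreated and red treated with 15 µM cisplatin, with a bar for the mean of 3 arrays. Treated and untreated arrays are apart for all genes but H3C13, and the SKOV-3-DD treated arrays of H2BC14 spread from 7.55 to 10.30.

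H2BC14 had the largest fall of all members. Its signal was 14.38, 14.41 and 14.32 on the untreated SKOV-3-EV arrays, 14.55, 14.49 and 14.53 in SKOV-3-AA and 14.71, 14.40 and 14.50 in SKOV-3-DD. Under cisplatin it was 8.47, 8.10 and 9.64 in SKOV-3-EV, 9.68, 9.60 and 9.58 in SKOV-3-AA and 9.43, 7.55 and 10.30 in SKOV-3-DD. The untreated arrays lay close together, while the treated arrays had an SD of 0.80 in SKOV-3-EV and 1.41 in SKOV-3-DD against 0.06 in SKOV-3-AA (n = 3 each). The fold change was 40.2-fold lower, -5.33 on the log2 scale (SE 0.27, adjusted p = 4.4e-12 by limma). The H2BC14 signal exceeded the control level on 8 of 9 treated arrays. In SKOV-3-DD replicate 2 it was 7.55, under the control level of that array (7.62). H2BC8 went from between 12.77 and 13.24 to between 10.00 and 10.83, 5.91-fold lower (log2 fold change -2.56, SE 0.11). H2BC13 went from between 9.004 and 9.545 to between 6.54 and 7.79, 4.33-fold lower (log2 fold change -2.12, SE 0.12), with 5 of 9 treated arrays still above the control level. H2BC26, H2BC11, H2BC3 and H2BC18, named here after their values were seen, followed at -2.09, -2.07, -2.06 and -1.90, but H2BC26 exceeded the control level on 1 and H2BC3 on 2 of 9 treated arrays, so that the size of their falls is uncertain. At the other end H2BC5 fell by 0.31 (SE 0.11) with overlapping groups, and H2BC1, a testis H2B gene that exceeded the control level on no array, by 0.20 (SE 0.09, adjusted p = 0.044 by limma). The call of H2BC1 was lost in 13 of 18 fits that left out 1 array, after centring and with trend and robust options (adjusted p = 0.096 by limma). H2BC10 was above the control level on all untreated and on no treated array, and its fall was at least 1.49-fold against that level. Of the others, H2AC15, H2BC17, H3C6, H4C2 and H4C13 exceeded that level on 4 to 8 untreated and on no treated arrays, so the sizes of their falls are not resolved, although their fitted values enter the counts, the medians and the plot of all 61 genes.

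Among H2A genes 3 fell by more than 2-fold. H2AC4 went from between 11.82 and 12.23 to between 9.20 and 10.42, 4.27-fold lower (log2 fold change -2.09, SE 0.12). H2AC8 went from between 14.99 and 15.34 to between 12.73 and 13.78 (log2 fold change -1.82, SE 0.10) and H2AC6 from between 8.68 and 9.26 to between 7.44 and 7.69 (log2 fold change -1.38, SE 0.07). In these 3 genes no treated array reached the untreated arrays. Of the other 9 that fell, H2AC15 had no treated array above the control level, and the remaining 8 fell by 0.38 to 0.84 on the log2 scale. H2AC25 on chromosome 1 was not called, with 7.04 to 7.43 before and 7.02 to 7.72 after (log2 fold change 0.07, SE 0.09), but was called higher after centring (0.27) and quantile normalization (0.37). Not called either was H2AC1, a testis H2A gene (log2 fold change 0.00, SE 0.14), which exceeded the control level on no array. H2AC18 and H2AC19 are near-identical copies whose signals differed by 0.05 to 0.45 on every array. Their falls were 0.59 and 0.50, and whether their probes tell the copies apart was not tested.

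Many H2A and H2B genes stand head to head, and a start of each on opposite strands within 1 kb was found for 8 such pairs, at 215 to 248 bases. The region printed for H2BC14 is that of H2AC14 read from the other side, and its TATAAA lies on the strand of H2AC14. The 2 genes did not move alike. H2AC14 went from between 16.78 and 16.997 to between 16.03 and 16.57, a log2 fold change of -0.63 (SE 0.07), while H2BC14 fell by 5.33. Computed within each array, the H2BC14 signal relative to H2AC14 changed by -4.69 (95% interval -5.33 to -4.06, 12 residual degrees of freedom), and no treated array overlapped the untreated arrays. The same difference, H2B minus H2A, was -2.16 (95% interval -2.57 to -1.74) for H2BC26 and H2AC25, -1.51 (-1.82 to -1.21) for H2BC13 and H2AC13, -1.23 (-1.36 to -1.09) for H2BC11 and H2AC11, -0.74 (-0.90 to -0.59) for H2BC8 and H2AC8 and -0.63 (-0.86 to -0.40) for H2BC21 and H2AC20. H2BC26 exceeded the control level on 1 of 9 treated arrays and H2BC13 on 5 of 9, so the size of the difference is uncertain for those pairs. In 7 of the 8 pairs it was below 0, and in 6 of the 8 treated and untreated arrays did not overlap. Over all genes of each type the median change was also lower for H2B (-1.45) than for H2A (-0.62). Genes that do not stand head to head were not compared in this way. H2BC4 and H2AC6 ran the other way, at 1.01 (0.77 to 1.25). H2BC4 exceeded the control level on 6 and H2AC6 on 7 of 9 treated arrays, so the size of this difference is uncertain too. For H2BC1 and H2AC1, which exceeded the control level on no array, the difference of -0.21 (95% interval -0.58 to 0.17) was not distinguishable from 0. Within-array differences do not depend on the median of the array. They do depend on the signal range of both probe sets. H2AC14 had an untreated mean of 16.91, where the highest of all probe sets was 17.58. Whether such bright signals understate a fall was not tested. The 8 H2A genes with an octamer upstream had a median log2 fold change of -0.83 and the 5 without one -0.59, and the 14 H2B genes with it -1.41 and the 3 without it -2.09. Both genes of a pair can count the same octamer, so these H2A and H2B groups are not independent.

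**Figure D3:**
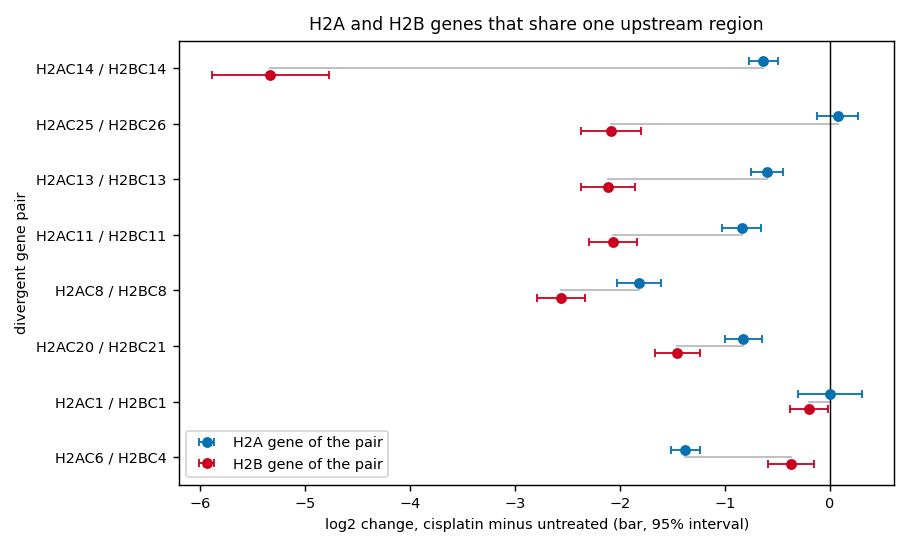
The log2 change after cisplatin (x axis) is plotted for the H2A gene (blue) and the H2B gene (red) of 8 divergent pairs, with bars for the 95% interval. The H2B gene lies to the left in 7 of the 8 pairs, with the widest gap between H2AC14 and H2BC14, and only H2AC6 fell further than its partner H2BC4.

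Among the H3 genes, those on chromosome 6 encode H3.1 and H3C13 on chromosome 1 encodes H3.2. H3C8 went from between 9.01 and 9.70 to between 6.80 and 7.94, 3.58-fold lower (log2 fold change -1.84, SE 0.12), with 5 of 9 treated arrays above the control level. H3C2 (-1.32, SE 0.11), H3C7 (-1.30, SE 0.12), H3C11 (-1.29) and H3C10 (-1.24) changed by nearly the same log2 amount, and in all 5 the treated and untreated arrays did not overlap. H3C6 was called lower, with no treated array above the control level. H3C3 (7.58 to 8.37 before, 7.55 to 7.90 after, log2 fold change -0.19, SE 0.10) and H3C1 (9.48 to 10.01 before, 9.57 to 10.35 after, log2 fold change 0.15, SE 0.11) were not called, though H3C1 was called higher after centring (0.35) and quantile normalization (0.37). H3C13 was the member with the clearest rise, from between 9.83 and 10.51 to between 10.12 and 11.01, 1.40-fold (log2 fold change 0.49, SE 0.11, adjusted p = 0.0011 by limma). It rose in SKOV-3-EV (0.60) and SKOV-3-AA (0.70). For SKOV-3-DD, where the untreated arrays already reached 10.51, the value was 0.16 (adjusted p = 0.55 by limma).

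H4 genes all encode the same protein except H4C7, which encodes a diverged form. H4C4 went from between 11.18 and 11.40 to between 9.07 and 9.75, 3.49-fold lower (log2 fold change -1.80, SE 0.09). H4C1 fell 2.68-fold (log2 fold change -1.42, SE 0.09) and H4C5 fell from between 16.03 and 16.28 to between 14.25 and 15.27 (log2 fold change -1.30, SE 0.10). The treated arrays lay under the untreated arrays in these 3 genes. Near-identical H4C14 and H4C15 fell by 0.35 and 0.23, and their signals differed by no more than 0.27 on any array, and whether their probes tell the copies apart was not tested. H4C12 went from between 10.45 and 10.71 to between 10.38 and 11.08, a log2 fold change of 0.19 (SE 0.08, adjusted p = 0.042 by limma), and the groups overlapped. Leaving out 1 array at a time ended the call of H4C12 in 13 of 18 cases, with log2 fold changes of 0.16 to 0.23 over the 18. H4C6 (0.35), H4C7 (0.17) and H4C16 (-0.14) were not called and exceeded the control level on no array, and H4C6 and H4C7 were called higher after centring.

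Each transfection showed the fall on its own. In SKOV-3-EV 48 of the 61 fell and 2 rose (24.3% and 26.2% of all probe sets), in SKOV-3-AA 42 fell and 1 rose (23% and 22.3%), and in SKOV-3-DD 44 fell and 0 rose (22.7% and 20.1%). In all 3 transfections 41 genes fell (19% of all probe sets), 2 fell in 2 and 7 in 1 of them. Median log2 fold changes were -0.92 for SKOV-3-EV, -0.90 for SKOV-3-DD and -0.71 for SKOV-3-AA. For H1 they were -2.50, -2.44 and -2.21 in that order and for H2B -1.51, -1.56 and -1.28. Without SKOV-3-DD replicate 2 under cisplatin the SKOV-3-DD count was 42 and the median -0.75. Of the 50 genes that fell over all arrays, 34 had their smallest fall in SKOV-3-AA, 13 in SKOV-3-DD and 3 in SKOV-3-EV, which is a description of genes measured on the same arrays. How all probe sets that fell divide in this way is not given here, so the order cannot be called particular to histone genes.

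**Figure D4:**
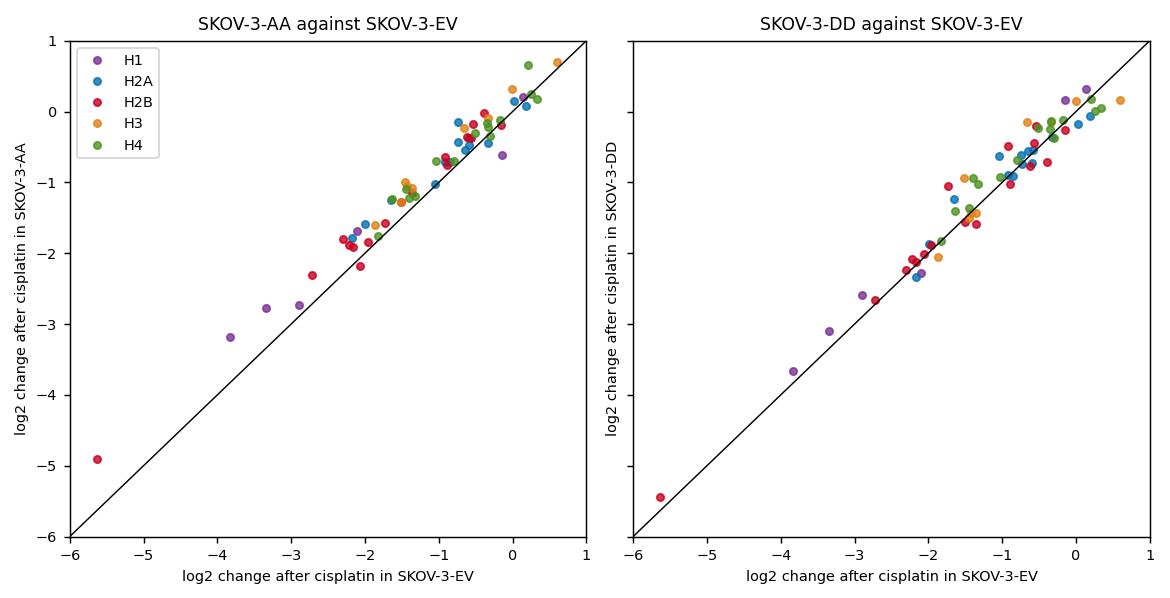
The log2 change after cisplatin of each of the 61 genes in SKOV-3-AA (left, y axis) and SKOV-3-DD (right, y axis) is plotted against that in SKOV-3-EV (x axis), coloured by histone type, with a line where both are equal. Genes lie near the line, and in SKOV-3-AA 53 of the 61 lie above it, against 38 in SKOV-3-DD.

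No difference between transfections passed the threshold. Of the 61 genes 0 were called in any of the 6 comparisons between transfections or the 3 differences between cisplatin responses, by limma with an adjusted p under 0.05 and also with its trend and robust options, and 0% of all probe sets were called by limma in each of the 9. These comparisons share arrays and are therefore given side by side. Under cisplatin SKOV-3-AA minus SKOV-3-EV was above 0 for 52 genes (50.4% of all probe sets) with a median of 0.21, and 17 genes had an unadjusted p under 0.05 (12.5% of all). SKOV-3-AA minus SKOV-3-DD was above 0 for 50 genes (51.7% of all) with a median of 0.18, and 18 had an unadjusted p under 0.05 (6.98% of all). SKOV-3-DD minus SKOV-3-EV was above 0 for 34 genes (50.6% of all) with a median of 0.01, and 3 had such a p (7.79% of all). In untreated cells the medians were 0.02, 0.06 and -0.04 for SKOV-3-AA minus SKOV-3-EV, SKOV-3-AA minus SKOV-3-DD and SKOV-3-DD minus SKOV-3-EV, with 1, 1 and 3 genes at an unadjusted p under 0.05 (3.09%, 3.99% and 5.47% of all). The 95% interval of such a difference had a median half-width of 0.37, so differences below that size were not resolved. For the cisplatin response the differences were above 0 for 53 genes in SKOV-3-AA minus SKOV-3-EV (median 0.21, 49.2% of all probe sets above 0), 45 in SKOV-3-AA minus SKOV-3-DD (0.18, 52%) and 38 in SKOV-3-DD minus SKOV-3-EV (0.06, 48.3%), with 2, 5 and 3 genes at an unadjusted p under 0.05 (6.9%, 4.7% and 7.59% of all).

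H2AC21 had the lowest p among these comparisons. Under cisplatin its signal was 10.11, 10.16 and 10.55 in SKOV-3-EV, 10.92, 11.005 and 11.05 in SKOV-3-AA and 10.42, 10.52 and 10.49 in SKOV-3-DD, beside 10.73 to 11.22 untreated. The SKOV-3-AA arrays thus lay above both other treated groups. The difference from SKOV-3-EV was 0.72 (95% interval 0.42 to 1.02, adjusted p = 0.11 by limma). It passed the threshold with array weights (adjusted p = 0.030 by limma), for which the share of all probe sets called is not given here. It also passed without SKOV-3-DD replicate 2 under cisplatin (adjusted p = 0.033 by limma), where 0.788% of all probe sets were called. Next came H2AC14 at 0.37 (SE 0.12). For SKOV-3-AA minus SKOV-3-DD under cisplatin H2AC21 differed by 0.51 (SE 0.14) and H1-6, which exceeded the control level on no array, by -0.83 (SE 0.24). Without SKOV-3-DD replicate 3 under cisplatin, H1-5 (1.06) and H2BC13 (0.88) were called in that comparison, both with an adjusted p of 0.048 by limma, where 0.27% of all probe sets were. For SKOV-3-DD minus SKOV-3-EV the lowest p-values belonged to H3C10 (0.57, SE 0.18) and H3C6, which exceeded the control level on no treated array, under cisplatin and to H2AC6 (-0.32, SE 0.12) and H2BC21 (-0.46, SE 0.17) untreated. For untreated SKOV-3-AA they belonged to H2AC6 (-0.26, SE 0.12) and H2BC5 (-0.32, SE 0.18) against SKOV-3-EV and to H2AC15 (0.39, SE 0.19) and H2BC17 (0.34, SE 0.17), above the control level on 8 and 7 of the 9 untreated arrays, against SKOV-3-DD. In the differences between responses they belonged to H2AC21 (0.60, SE 0.20) and H2AC6 (0.40, SE 0.16) for SKOV-3-AA minus SKOV-3-EV, to H2BC21 (0.67, SE 0.24) and H2AC6 (0.42, SE 0.16) for SKOV-3-DD minus SKOV-3-EV, and to H2BC4 (0.68, SE 0.25) and H2AC21 (0.48, SE 0.20) for SKOV-3-AA minus SKOV-3-DD. With all 18 arrays and equal weights, none of these differences was called.

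Genes that make and process histone mRNA moved in both directions after cisplatin. Of 20 measured, 8 rose, 8 fell and 4 were not called, where 36.5% of all probe sets rose and 28.7% fell. ZNF473, which binds the U7 particle at the 3′ end of histone mRNA, rose from between 9.07 and 9.44 to between 11.02 and 11.47 (log2 fold change 1.92, SE 0.08). SLBP, the stem-loop binding protein, rose from between 9.94 and 10.36 to between 11.24 and 11.54 (log2 fold change 1.25, SE 0.07), and LSM1, part of the ring that degrades histone mRNA, by 1.29 (SE 0.09). These 3 rose without overlap between groups while the histone genes fell. The cleavage factors SYMPK (-1.21, SE 0.09), CPSF2 (-1.15, SE 0.08) and CPSF3 (-0.88, SE 0.09) fell. The median over the list was 0.10, equal to that of all probe sets.

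Histone genes listed as replication-independent moved in both directions. When in the cell cycle each of them is made was not tested, and some may also be made in S phase. Of 10 measured, 5 rose, 4 fell and 1 was not called, where 36.5% of all probe sets rose and 28.7% fell, and the median was 0.20. H2AX, the variant phosphorylated at DNA breaks, rose from between 14.13 and 14.22 to between 14.93 and 15.40 (log2 fold change 0.99, SE 0.07), H1-10, a replication-independent linker histone, by 0.83 (SE 0.12) and H2AZ1 by 0.82 (SE 0.07). H2AX moved up on arrays on which 12 of 14 H2AC genes moved down, which is a description of single genes and not of classes. MACROH2A2 (-0.82, SE 0.08), MACROH2A1 (-0.79, SE 0.07) and CENPA, the centromeric H3 (-0.42, SE 0.08), fell.

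Of 20 histone chaperones measured, 10 fell, 4 rose and 6 were not called, where 28.7% of all probe sets fell and 36.5% rose, and the median was -0.25. ATRX, a remodeller that deposits H3.3, was above the control level on all untreated and on no treated array, a fall of at least 1.77-fold, and CABIN1 fell by 1.38 (SE 0.10) and MMS22L by 1.06 (SE 0.11) on the log2 scale. ASF1B, which carries newly made H3 and H4, rose from between 12.57 and 13.07 to between 14.23 and 14.62 (log2 fold change 1.58, SE 0.07), as did DAXX (0.67, SE 0.08) and TONSL (1.04, SE 0.12), the last above the control level on no array. MMS22L and TONSL form 1 complex at stalled forks. Because TONSL stayed under the control level, the directions of the 2 genes cannot be compared.

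Of 12 regulators of S phase measured, 8 rose, 3 fell and 1 was not called, where 36.5% of all probe sets rose and 28.7% fell, and the median was 0.72. Of the 12, 9 exceeded the control level on all 18 arrays. CDKN1A, the p21 inhibitor of cyclin-dependent kinases, rose from between 5.85 and 7.35 to between 11.45 and 12.28 (log2 fold change 5.11, SE 0.15). Its lowest untreated signal lay under the lowest control level of the untreated arrays (6.30), so the size of its rise is uncertain. CCNE1 and CCNE2, the E cyclins whose kinase phosphorylates NPAT, rose by 3.37 (SE 0.07) and 2.59 (SE 0.09). The inhibitor and the cyclins thus rose on the same arrays. E2F3 (-0.73, SE 0.17), CHEK1 (-0.48, SE 0.09) and CCNA2, the S-phase cyclin A (-0.44, SE 0.06), fell. NPAT itself fell by 0.73 (SE 0.18), with treated arrays from 7.02 to 9.02 against 8.60 to 8.96 untreated, so the groups overlapped. These lists count genes chosen for their role, and no test compared a list with other genes.

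**Figure D5:**
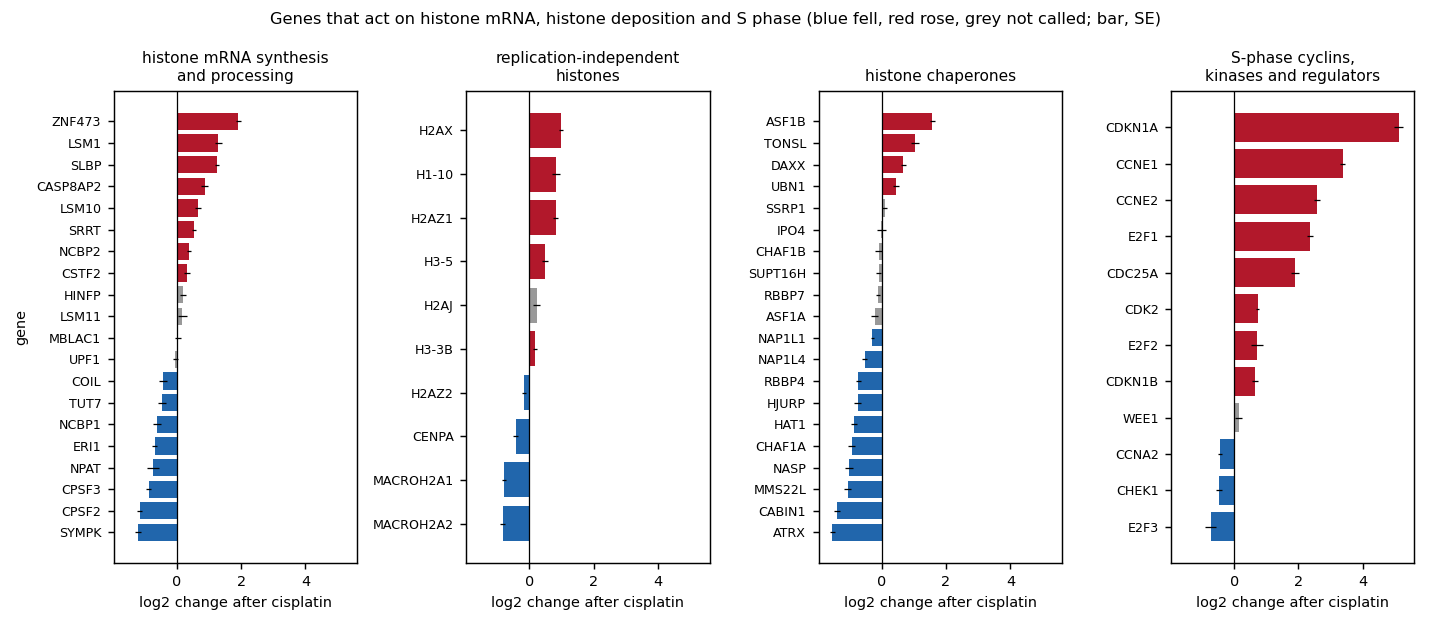
The log2 change after cisplatin (x axis, 9 treated minus 9 untreated arrays) is plotted for the measured genes of 4 lists, blue for genes that fell, red for genes that rose, grey for genes not called, with the SE as a thin line. CDKN1A (5.11) and CCNE1 (3.37) have the longest bars, and histone mRNA genes are split between 8 that rose and 8 that fell.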

How the data were processed

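Expression was measured on 18 Clariom S arrays of SKOV-3 cells in 6 groups of 3. The deposited log2 values are per probe set and were made by the authors with SST-RMA in Transcriptome Analysis Console 4.1, which normalizes between arrays. No source used here gives the build behind the probe annotation. Of 24351 features 2903 controls were left out and 21448 were tested, 17709 with a gene symbol, several symbols in 0 cases and none in 3739. The table held 0 other columns. An array's control level is the 95th percentile of its 612 negative controls. Precision was limited by the number of arrays, with a median SE of 0.10 over all transfections and 0.18 in 1.

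limma 3.58.1 in R 4.3.3 fitted 1 mean per group (12 residual and 5.47 prior degrees of freedom), with Benjamini-Hochberg adjustment over all 21448 probe sets, and a call is an adjusted p under 0.05. Rose and fell are used for calls only. The scripts were tested on simulated data. Pair differences were fitted per array with the same groups, in Python 3.11.15. Promoters and motifs came from RefSeq, 1 region for each of the 57 genes.

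Members, lists and rules were chosen with earlier results of these data known. Named were all H1 genes, the 3 lowest and 2 highest changes of each core type, genes that rose or were not called, the 2 lowest p-values of each transfection comparison, and up to 3 called genes in each direction of a list. Alternatives were median centring, quantile normalization, a filter on dim probe sets, trend and robust options, a replicate block, the compared groups alone, array weights, 1 probe set per symbol, the study's thresholds and leaving out each array.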

Additional observations from a re-analysis of the deposited data

How the results depend on the processing

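Among the alternatives tried 0 called values reversed, and the count of genes that fell over all transfections stayed between 49 and 51 when each array was left out, and the medians moved little (-0.88 to -0.79 for all genes, -2.50 to -2.30 for H1, -0.65 to -0.59 for H2A, -1.48 to -1.35 for H2B, -1.30 to -1.19 for H3, -0.41 to -0.33 for H4). Centring each array on its median moved all changes up by 0.20, and 43 genes then fell, quantile normalization gave 46, and 41 fell under all 3 scalings. The median change of all probe sets was 0.30 after centring and 0.04 after quantile normalization. The shares of all probe sets called lower or higher under these 2 scalings are not given here. The counts of genes that fell or rose under them therefore have no background beside them. Under centring the medians were -0.42 for H2A, -1.25 for H2B and -0.15 for H4, and 7 genes rose over all transfections, 1 in SKOV-3-DD and 6 in SKOV-3-AA. Over all transfections 2, H3C13 and H4C12, were also called higher as deposited and after quantile normalization. Quantile normalization gave -1.19 for H2B and -0.96 for H3, with 3 genes called higher in SKOV-3-AA. A filter on dim probe sets gave -2.91 for H1 and -0.54 for H4, with fewer genes. At the study's thresholds 27 genes were lower over all transfections (12.2% of all probe sets). There were 26 for SKOV-3-DD (11.7% of all), 27 for SKOV-3-AA (12.3%) and 29 for SKOV-3-EV (13.1%). In none were any genes higher, since a 2-fold change is also asked. Of all probe sets 6.4% were higher over all transfections, 6.72% for SKOV-3-DD, 7.04% for SKOV-3-AA and 7.05% for SKOV-3-EV.

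For SKOV-3-AA 2 genes rose with trend and robust options, with the compared groups alone and with array weights, and 1 rose for SKOV-3-EV with the compared groups alone and array weights. Array weights called 1 gene for SKOV-3-AA minus SKOV-3-EV under cisplatin. The shares of all probe sets called in these fits are not given here. Leaving out 1 array gave 1 to 4 genes that rose over all transfections, 1 to 2 in SKOV-3-AA, 0 to 2 in SKOV-3-EV, 43 to 49 genes that fell in SKOV-3-EV, and 0 to 2 genes called for SKOV-3-AA minus SKOV-3-DD and 0 to 1 for SKOV-3-AA minus SKOV-3-EV under cisplatin. The cause was not tested. Deviations from the group means correlated weakly between same-numbered arrays (-0.05 to 0.18 in 45 pairs, 8 over 0.1). The median was 0.02, against -0.01 for differently numbered pairs. Weak correlations cannot show that the arrays were unpaired. With the replicate block 1 gene rose in SKOV-3-EV in place of 2, and H4C12 had an adjusted p of 0.051 by limma. For the 7 genes above the control level on no array the signal limits what can be measured. The control level itself was 6.30 to 6.95 on untreated and 6.80 to 7.62 on treated arrays. The median of the negative controls was on average 0.19 higher on treated arrays. The part of this shift in small changes of dim genes, such as that of H1-1, was not tested.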
